A study of Mus musculus with 6 samples.

Results

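The spleen library was one of 6 libraries of RNA ends made from adult mouse tissues of the BALB-c background, and it was compared here with the libraries of whole brain, lung, liver, kidney and ovary. Its members were all lines deposited for whole spleen, 32488 of 597299 lines in the series, each giving a short sequence tag, its place in the mm9 genome and its read count. Every tissue had 1 library, labelled as replicate 1, of polyadenylated RNA, with no treatment or genotype change named in the labels, and the number of animals, their sex and their exact age were not given in the sources used here. The extraction protocol is shared by all 6 samples and names its amount of total RNA (200 µg) for brain, liver or lung alone. After reads listed at 2 places were left out, 42939 spleen tags remained on 25523 distinct 5′ ends, against 29213 tags in ovary and 493121 in lung. With 1 library per tissue no test between tissues was possible: levels are tags per 1000000 unique tags (CPM), ratios carry exact conditional binomial 95% intervals, shares carry Clopper-Pearson intervals, and these cover counting error only, since reads of PCR products are not independent molecules.

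Parallel analysis of RNA ends ligates an adaptor to RNAs that carry a 5′ monophosphate and a poly(A) tail, so each tag begins where a cleaved, decapped or decaying RNA begins, while intact capped RNAs are not ligated. The spleen filters blood: its white pulp holds B and T lymphocytes and antigen-presenting cells, and the macrophages of its red pulp take up old red cells and recycle their iron. Near the 3′ end of most messenger RNAs lies a poly(A) signal, usually AATAAA in the DNA, and the RNA is cut and tailed a short way downstream of it. A tag level reports RNA ends, and in whole tissue fewer cells of a type and less RNA per cell cannot be told apart.

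Many spleen tags held the letters of a poly(A) signal. The strongest ends of 6 genes, picked because their tags hold AATAAA, are shown as examples. Among ends whose letters are given here, the strongest (the snoRNA host gene 2410006H16Rik, then Hmg20b) do not hold AATAAA. The strongest end of the whole library, in Cd74, is not among the ends with letters given. Each line gives the tag of 1 end from its 5′ end, with the letters AATAAA in capitals.
Ltb: tgaaAATAAAgaatgtaaac
Tmsb4x: AATAAAgttttaaaacctga
H2-K1: tgaagaAATAAAtgatagat
Pfn1: ttctgAATAAAaaaagattc
Gnai2: AATAAAatgtagaaagaaaa
Alb: AATAAAaaatggaaagaatct
In mm9 these ends lie at chr17:35333227 on the plus strand (139 spleen tags), chrX:163645044 on the minus strand (119 tags), chr17:34133004 on the minus strand (84 tags), chr11:70465377 on the minus strand (73 tags), chr9:107516484 on the minus strand (60 tags) and chr5:90905607 on the plus strand (103 tags). Gene names are RefSeq symbols placed on mm9 windows through neighbouring sequences, and without an mm9 annotation exons and untranslated regions were not assigned.

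Tags holding AATAAA made up 38.1% of the spleen library (95% interval 37.6 to 38.6%). The same letters were in 4.40% of brain tags, 8.80% of lung tags, 9.70% of liver tags, 2.28% of kidney tags and 3.89% of ovary tags, so spleen stood apart from all 5. The variant signal ATTAAA was in 5.15% of spleen tags and in 0.543 to 1.43% of tags elsewhere. The reverse complement of the main signal, TTTATT, was in 0.810% of spleen tags and in 0.297 to 0.493% elsewhere. A tag can hold more than 1 of these letter strings, and 42.8% of spleen tags held at least 1 of the 2 signals. Counted once per distinct end, 30.1% of spleen ends carried AATAAA, against 2.34 to 7.35% in the other libraries.

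Within spleen tags the signal lay close to the 5′ end. It began at base 1 in 7.04% of all spleen tags, at base 5 in 3.15%, at base 10 in 1.35% and at base 15 in 0.389%. Counting every end from 14 bases before to 30 bases after the first base of a signal read in any library, 55.1% of spleen tags (54.6 to 55.6%) fell within that span, against 4.82% in kidney and 17.2% in liver, the lowest and the highest of the others. The span and the letters were chosen after the data had been seen. Spleen tags were also poorer in G and C, at 30.2% of bases against 44.4 to 49.1% elsewhere, and outside the span the spleen value was 37.3% against 46.9 to 49.7%.

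**Figure D1:**
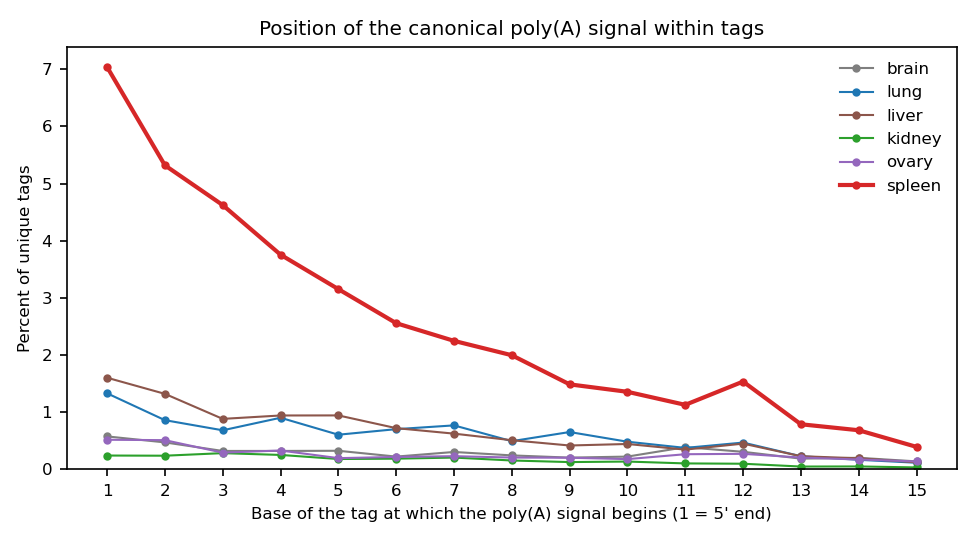
Percent of unique tags (vertical axis) in which AATAAA begins at each base of the tag (horizontal axis, base 1 is the 5′ end), 1 line per library. The spleen line falls from 7.04% at base 1 to 0.389% at base 15 and lies above the other 5 lines.

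The same was seen inside windows shared with other tissues. Of 181 strand-specific windows of 2 kb with at least 20 tags in both spleen and lung, the share of tags with AATAAA was higher in spleen in 120, lower in 15 and equal in 46. The median share over these windows was 41.8% in spleen and 8.72% in lung. Against kidney the share was higher in spleen in 60 of 89 such windows and lower in 2, and against liver in 34 of 56 and lower in 5. For Alb, the liver-made serum albumin, 38.3% of 290 spleen tags held AATAAA against 4.99% of the liver tags. For Rplp1, an acidic protein of the ribosomal stalk, the shares were 81.8% in spleen, 77.4% in liver and 58.3% in lung, so this gene differed less.

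Spleen ends were few for the number of tags. At a common depth of 29213 tags, spleen had 63.5 distinct ends per 100 tags, the lowest of the 6 libraries, next to liver at 65.9, while brain had 84.3. Its 10 strongest ends nevertheless held 5.12% of its tags (4.92 to 5.34%), less than in the other libraries (6.33 to 10.4%). Of the 130 spleen ends with at least 20 tags, 122 lie on chromosomes whose letters are given here, and among these 64 tags held AATAAA, 1 held ATTAAA alone and 9 ended in a run of at least 6 A. Of the 130 ends, 121 also had a tag in some other library and 117 had one in lung. The share rose with the tag minimum. It was 35.5% for all 25523 spleen ends and 78.8% for the 923 ends with at least 5 tags.

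Windows holding 20 or more spleen tags were tested, and one was called led by spleen where the 95% interval of spleen CPM divided by the CPM of the next library down lay wholly above 1. Of 243 windows tested, 184 were led, so percent called was 75.7%, and the led windows held 29.5% of all spleen tags (29.0 to 29.9%). Windows entered by their spleen tags alone, which favours spleen in this percent. Among 9986 named genes chosen by tags over all 6 libraries, spleen had the highest level for 17.9%. Of the led windows 132 carried a protein-coding or antigen receptor gene, 14 a pseudogene only, 8 a noncoding RNA gene only and 30 no name. The second highest library was lung in 83 of them, ovary in 39 and liver in 30. Over the led windows with a tag in some other library, the median ratio was 6.93. Counting each distinct end once within the same windows left 88 called (36.2%), and 86 of these were among the 184. Scaling by the trimmed mean of M values, divided spleen levels by a further 2.09 relative to lung. It called 155 windows (63.8%), 152 of them among the 184.

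**Figure D2:**
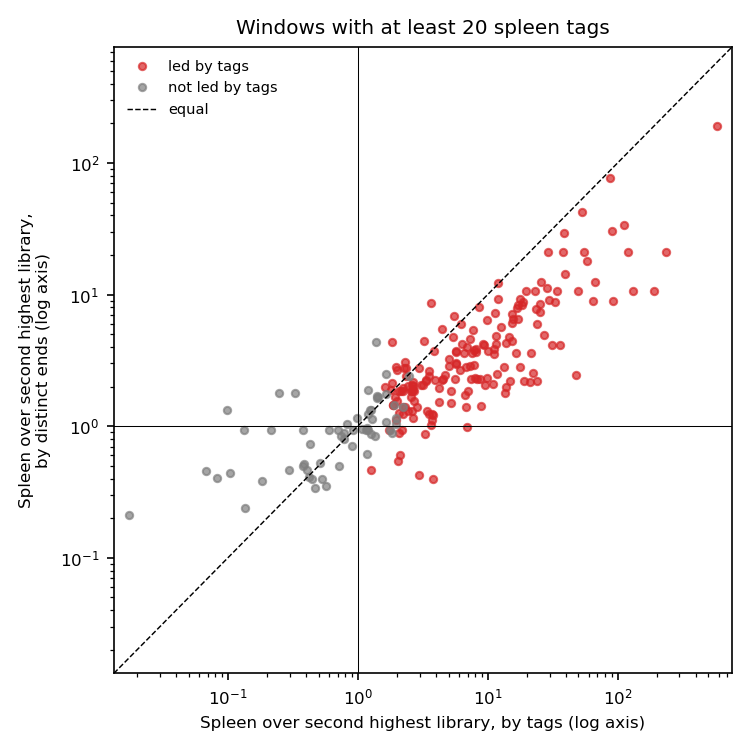
Ratio of spleen over the second highest library by distinct ends (vertical log axis) against the ratio by tags (horizontal log axis), 1 point per window with at least 20 spleen tags, for 236 windows with a tag in another library. In 185 of the 236 windows the ratio by distinct ends was below the ratio by tags.

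Led windows held more tags near a signal than the other tested windows did. In the 184 led windows the median share of spleen tags within the signal span was 90.4%, and in the 59 other tested windows it was 46.9%. The call and this share rest on the same spleen tags, and spleen had the most tags in the span for its depth. The difference is therefore a description and not a test. When tags within the span were left out, 77 windows kept 20 spleen tags and 62 were led, 50 of them among the 184. Of the 184, only 52 still held 20 spleen tags outside the span and 43 held none. For the genes described next, the ratio recomputed from tags outside the span is therefore given as well. Levels, ratios and calls outside the span were scaled to each library's tags outside it. These were 44.9% of tags in spleen and 82.8 to 95.2% elsewhere. Against scaling by all tags, this raises spleen over every other library, even where a gene's tags do not change.

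The label was checked against marker lists of the cells a spleen holds. Lists of genes were summed over their windows, and a gene counted where at least 10 tags over the 6 libraries were placed. Among all 9986 named genes at that depth, spleen had the highest level for 17.9%. Spleen was highest for 8 of 9 MHC class II genes, 5 of 8 MHC class I genes, 11 of 13 B cell genes, 8 of 9 T cell genes and 11 of 13 genes of leukocytes in general. It was highest for 5 of 10 genes of red pulp macrophages, 5 of 7 erythroid genes, 2 of 6 neutrophil genes, 2 of 4 platelet genes and 0 of 3 genes of splenic stroma. The median ratio over all 9986 genes was 0.212, and over the genes of these lists it was 4.31 for MHC class II, 4.91 for B cells, 2.55 for T cells, 1.15 for red pulp macrophages and 0.194 for stroma. Ltb and Cd74, the markers given for this tissue, were both highest in spleen.

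**Figure D3:**
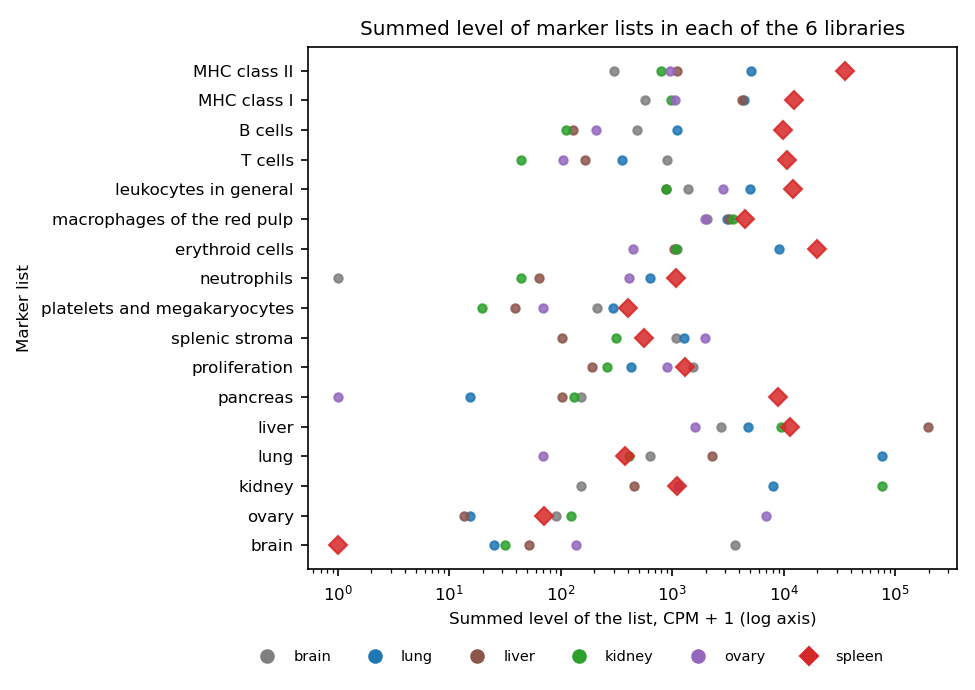
Summed level of each marker list (horizontal log axis, CPM + 1) in the 6 libraries, with spleen as a red diamond and the others as circles. Spleen is the highest library for the lists of MHC class I and II, B cells, T cells, leukocytes, red pulp macrophages, erythroid cells, neutrophils, platelets and pancreas, although with scaling by the trimmed mean of M values it was at 0.689, 0.808 and 0.638 of lung for red pulp macrophages, neutrophils and platelets.

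Ltb, which encodes lymphotoxin beta, a membrane ligand that lymphocytes use to organise lymphoid tissue, had 405 tags on 20 ends in spleen, 35 tags in lung, 8 in liver and 0 in brain, kidney and ovary. Spleen stood at 9432 CPM, 93.1-fold above liver (46.8 to 217). By distinct ends the ratio was 8.95. Of the spleen tags 97.5% held AATAAA, against 25.7% of the 35 lung tags. From the 10 spleen tags outside the signal span the ratio was 9.09 over lung (lower bound 3.88), so spleen stayed highest on few tags.

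Cd74, the invariant chain that chaperones MHC class II molecules, held the most spleen tags of any window, with 1168 on 49 ends (27201 CPM, 25664 to 28807). Lung had 1315 tags, liver 54, kidney 50, ovary 8 and brain 7. Spleen was 10.2-fold above lung (9.42 to 11.0) by tags and 2.22-fold (1.60 to 3.04) by distinct ends. A single end at chr18:60972285 held 536 spleen tags and 77 lung tags. AATAAA was in 86.8% of the spleen tags and 24.0% of the lung tags, and outside the span the ratio was 1.84 (lower bound 1.45). That ratio came from 83 spleen and 985 lung tags. Scaled to all unique tags, these counts would not put spleen above lung.

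The genes of the MHC class II molecules themselves, which present peptides to helper T cells, gave a wide span of ratios. H2-Eb1, a beta chain, had 128 spleen tags and 91 lung tags, a ratio of 16.2 (12.3 to 21.4) that became 1.82 (lower bound 0.709) outside the span. H2-Aa, an alpha chain, had 102 spleen tags and 395 lung tags, and its ratio of 2.97 (2.36 to 3.70) was 2.84 outside the span. H2-Ab1, its beta partner, had 97 spleen tags and 605 lung tags. Its ratio of 1.84 (1.47 to 2.28) was 1.02 outside the span and 0.879 with scaling by the trimmed mean of M values, and the order of spleen and lung thus turned. H2-Ob, which tunes peptide loading in B cells, had 12 spleen tags and 18 lung tags. For the list of 10 genes the summed ratio over lung was 7.00, and 3.47 without Cd74.

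MHC class I genes, which present peptides of the cell's own proteins in nearly all tissues, were split. H2-K1 had 273 spleen tags, 398 lung tags, 85 liver tags and at most 23 elsewhere, a ratio of 5.91 over liver (4.61 to 7.63). It had 30 ends in spleen, and by distinct ends spleen was at 0.826 of liver. Of its spleen tags 94.9% held AATAAA, and from the 9 outside the span the ratio was 0.517, so H2-K1 was high at its signal alone. B2m, the light chain of all class I molecules, had 224 spleen and 1440 lung tags, a ratio of 1.79 by tags, 2.04 outside the span and 0.853 under the trimmed mean of M values. H2-D1 had 26 spleen tags and a ratio over lung of 1.60 (1.02 to 2.41), which was 1.41 (0.662 to 2.66) outside the span and 0.762 under the trimmed mean of M values. Class I heavy chains are near-identical copies of each other, and reads that fit 2 of them were left out, so their levels are uncertain.

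**Figure D4:**
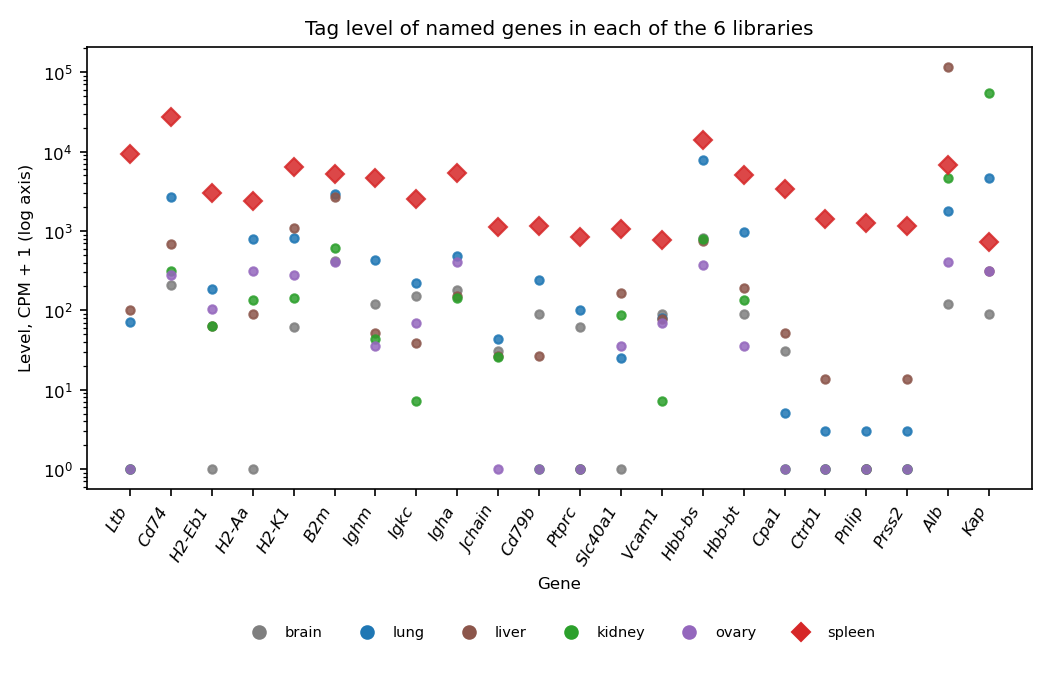
Level of 22 genes (vertical log axis, CPM + 1) in the 6 libraries, with spleen as a red diamond and the others as circles. Spleen is the highest library for the first 20 genes, from Ltb to Prss2, and liver and kidney are the highest for Alb and Kap, although with scaling by the trimmed mean of M values spleen was at 0.853 of lung for B2m and 0.850 for Hbb-bs.

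Immunoglobulin genes were above lung by each of 4 counts. Ighm, the constant region of IgM, had 200 tags on 65 ends in spleen and 213 tags in lung, while kidney had 7, brain and liver 4 each and ovary 1. Its ratio over lung was 10.8 (8.85 to 13.1) by tags, 5.31 by distinct ends, 5.15 under the trimmed mean of M values and 7.31 outside the span. Igkc, the constant region of the kappa light chain, had 108 tags on 42 ends, with ratios of 11.5, 7.19, 5.48 and 8.78 by the same 4 counts. Igha, the constant region of IgA, had 232 tags on 58 ends and ratios of 11.2, 4.85, 5.34 and 6.56. Jchain, which joins the units of secreted IgM and IgA, had 48 spleen tags and 21 lung tags, a ratio of 26.2 (15.4 to 46.2) that was 34.6 outside the span. Mzb1, an endoplasmic reticulum protein of plasma cells and marginal zone B cells, had 32 spleen tags and a ratio of 19.6 over liver. Igha, Jchain and Mzb1 were singled out after their values had been seen.

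Among other B cell genes, Cd79b, a signalling chain of the B cell receptor, had 50 spleen tags and 117 lung tags, a ratio of 4.91 (3.45 to 6.89) that was 2.55 outside the span. Ms4a1, which encodes CD20, had 19 spleen tags, 17 lung tags and 1 kidney tag. Fcer2a, the low-affinity IgE receptor, had 9 spleen tags and 6 lung tags. The remaining B cell genes were sparse, between 0 and 9 spleen tags each, and Cxcr5, the receptor that guides B cells into follicles, had 0, which allows 69.9 CPM. Summed, the B cell list was 8.79-fold above lung and 7.52-fold without Ighm.

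T cell genes were much sparser. Trbc2, a constant region of the T cell receptor beta chain, had 20 spleen tags and 20 lung tags, a ratio of 11.5 (5.86 to 22.5). Cd3d, Cd3e and Cd3g, the signalling chains of that receptor, had 3, 2 and 3 spleen tags. Lck, the kinase that starts the signal, had 7 spleen tags, and Cd4 had 1 and Cd8a 0. The list stood 11.9-fold above brain, but Ltb supplied 405 of its 458 spleen tags, and without Ltb the ratio was 1.37 over brain, where Thy1 had 27 tags. Thy1 marks T cells and neurons alike.

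Genes expressed by leukocytes in general were mixed outside the signal span. Ptprc, which encodes the phosphatase CD45, had 36 tags on 28 ends in spleen, 49 tags in lung, 2 in brain and 0 elsewhere, and its ratio over lung was 8.44 (5.33 to 13.2) with all tags and 9.69 outside the span. Arhgdib had 42 spleen tags, a ratio of 6.03 and a ratio of 1.59 (lower bound 0.417) outside the span. Ptpn6, the phosphatase SHP-1, had a ratio of 2.55 over lung with all tags and of 0.424 over liver from the 2 spleen tags outside the span. Tmsb4x, the actin-sequestering thymosin beta 4, had 318 spleen tags and 1790 lung tags, a ratio of 2.04 (1.81 to 2.30). Its ratio was 0.974 over lung under the trimmed mean of M values, 0.558 over ovary by distinct ends and 0.439 over lung outside the span, so spleen was not the highest library by any of these. Below 20 spleen tags, the ratio over lung was 10.8 for Cd52, 1.28 for Lcp1 (0.617 to 2.38), 1.08 for Lsp1 (0.381 to 2.47) and 0.574 for Cd53, while Cd48 had 0 spleen tags. Ptprcap, a partner of CD45, shares its window with the kinase gene Rps6kb2, and the window had 45 spleen tags and 13 lung tags, a ratio of 39.8 (lower bound 21.1).

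**Figure D5:**
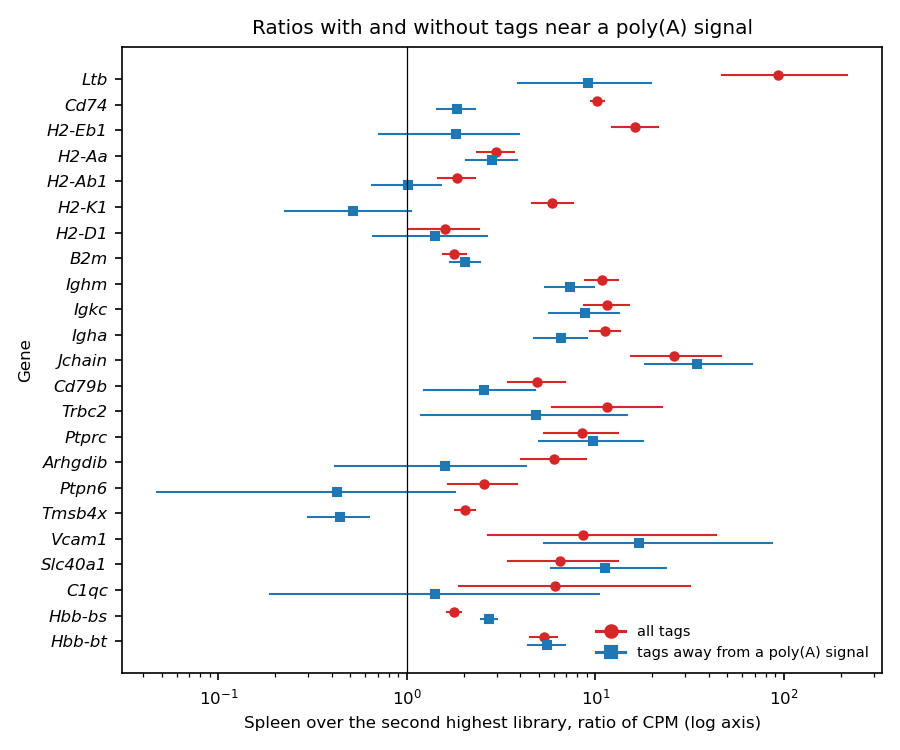
Ratio of spleen over the second highest library (horizontal log axis) for 23 genes, from all tags (red circles) and from tags outside the signal span (blue squares), with 95% intervals as lines. Blue values were scaled to each library's tags outside the span, which raises spleen against scaling by all tags. The interval for tags outside the span includes 1 for H2-Eb1, H2-Ab1, H2-K1, H2-D1, Arhgdib, Ptpn6 and C1qc and lies below 1 for Tmsb4x.

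Genes of the red pulp's iron-recycling macrophages were mixed. Slc40a1, the iron exporter ferroportin, had 46 tags on 20 ends in spleen, 14 tags in kidney, 13 in liver, 12 in lung, 1 in ovary and 0 in brain. Its ratio over liver was 6.51 (3.46 to 13.1), and 11.3 outside the span. Vcam1, an adhesion molecule of these macrophages, had 33 spleen tags of which 0 held AATAAA, and its ratios were 8.55 over brain (2.68 to 43.6) with all tags and 16.9 outside the span. All 33 spleen tags and the 3 brain tags lay outside the span, so only the scaling moved this ratio. The 3 chains of complement C1q differed. C1qc had 27 spleen tags and a ratio of 6.12 over ovary (1.88 to 31.5), which was 1.41 (0.188 to 10.5) outside the span, while C1qa was at 1.504 of liver (0.760 to 2.94) and C1qb at 0.799 of liver. Cd5l, a secreted macrophage protein, was at 0.153 of liver. Hmox1, the haem oxygenase, had 12 spleen tags and a ratio of 2.72 whose lower bound was 0.734, and Spic, the transcription factor of these cells, had 0.

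The iron-storage genes lay the other way. Fth1, the ferritin heavy chain, had 34 spleen tags and 424 kidney tags, with spleen at 0.303 of kidney (0.207 to 0.430), and Ftl1, the light chain, had 2 spleen tags and 41 liver tags. Lyz2, the lysozyme of myeloid cells, had 6 spleen tags and 441 lung tags, 0.156 of lung. The summed list was 1.28-fold above kidney (1.08 to 1.52), and under the trimmed mean of M values it was at 0.689 of lung, which left this list with no settled order.

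Adult beta globin, the oxygen carrier of red cells, was abundant. Hbb-bs had 594 tags on 92 ends in spleen, 3831 tags in lung, 127 in kidney, 59 in liver, 27 in brain and 11 in ovary. Its ratio over lung was 1.78 (1.63 to 1.94) by tags, 2.73 outside the span and 0.850 under the trimmed mean of M values, and by distinct ends it was 4.11 over liver. Hbb-bt had 220 spleen tags and 476 lung tags, with ratios over lung of 5.31 (4.50 to 6.24) by tags, 5.54 outside the span, 2.53 under the trimmed mean of M values and 6.27 by distinct ends. AATAAA was in 19.0% of the Hbb-bs tags and 27.7% of the Hbb-bt tags of spleen, so most globin tags did not hold it. The 2 genes are near-identical copies, so their split is uncertain. Alas2, the erythroid enzyme of haem synthesis, had 17 spleen tags and a ratio of 2.32 (1.29 to 3.95).

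The window of the erythroid microRNAs Mir144 and Mir451a had 23 spleen tags and was led by spleen, 4.47-fold above brain (lower bound 1.53). Precursor ends are shown because they mark where a hairpin is released from its primary RNA. The mature sequence from RefSeq (GRCm38.p6), with its seed in capitals, and the tag of the strongest spleen end there are given next.
miR-451a: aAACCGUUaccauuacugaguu
tag at chr11:77886730, plus strand: ttgctgctcccacaaactgt
This end lies 42 bases after the first base of the mature sequence and held 16 spleen tags, 19 lung tags, 4 brain tags, 1 liver tag and 0 in kidney and ovary. Its level was 373 CPM in spleen, 119.8 CPM in brain and 38.5 CPM in lung, and the hairpin's ratio over brain was 3.11 (1.003 to 12.8). The first base of the mature sequence itself had 0 spleen tags. Over all hairpins of RefSeq's table spleen had 64 tags in 20 of 963 hairpins, and only 5 hairpins had at least 5. These counts took only tags matching at least 14 bases of a hairpin. They left out an end at chr11:87570428 in the window of Mir142 and Tspoap1, with 27 spleen tags and 262 lung tags. Among the hairpins so counted, Mir146, whose product damps immune signalling, came after Mir451a. It had 7 spleen tags and 35 lung tags at the first base of miR-146a-5p. Mirlet7b also had 7 spleen tags, against 916 in kidney.

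Neutrophil genes were sparse, and their summed list stood 1.69-fold above lung by tags and at 0.808 of lung under the trimmed mean of M values. S100a8 and S100a9, the calprotectin subunits, had 14 and 16 spleen tags against 162 and 60 in lung, and S100a9 alone of the pair was above lung (3.06, lower bound 1.65). Camp, the antimicrobial peptide cathelicidin of maturing granulocytes, had 8 spleen tags and 1 lung tag. Mpo and Elane, enzymes of neutrophil granules, had 0 spleen tags. Among platelet genes Ppbp had 11 and Pf4 had 5, and among stromal genes Sparc had 10 and Acta2 had 6, with levels of the stromal list at 0.282 of ovary. The proliferation list was at 0.854 of brain (0.574 to 1.27), with spleen highest for 2 of 6 genes. Tubb5, a beta tubulin and the only member with at least 20 spleen tags, had 24 and was at 0.643 of brain (0.359 to 1.14), with 0 outside the span. Pcna, the sliding clamp of DNA replication, had 14 spleen tags against 12 in lung, and Mki67 had 1.

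Enzymes of pancreatic acinar cells, the cells that secrete digestive enzymes, formed the list with the widest gap between spleen and the other libraries. All 7 placed genes of the list were highest in spleen, and the 6 with at least 20 spleen tags were all led (background 69.1% of 262 named genes). Cpa1, a carboxypeptidase, had 146 tags on 28 ends in spleen, 4 tags in liver, 2 in lung, 1 in brain and 0 in kidney and ovary, a ratio of 67.1 (25.7 to 250) over liver. Ctrb1, a chymotrypsinogen, had 61 spleen tags and 1 tag each in lung and liver. Pnlip, pancreatic lipase, had 54 spleen tags and 1 lung tag, and with the up to 103 CPM that a count of 0 allows in ovary, spleen was at least 12.2-fold above the libraries at 0. Prss2, an anionic trypsinogen, had 49, and the elastases Cela3b, Cela2a and Cela1 had 28, 27 and 19. The summed list stood at 8943 CPM in spleen (8071 to 9884) and at 0 to 149.8 CPM elsewhere.

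AATAAA was in 68.5% of the Cpa1 tags, 44.4% of the Pnlip tags and 28.6% of the Cela3b tags. Outside the span Cpa1 had 18 spleen tags against 1 each in brain and liver, Pnlip had 19 against 0 elsewhere and Cela2a had 15 against 3 in brain, while Cela3b had 0 in every library. The list's ratio was 22.2 outside the span and 27.3 by distinct ends. In a further list of 21 acinar genes, drawn up after the first had been seen, 9 of 10 genes with at least 10 tags were highest in spleen, among them Rnase1, the pancreatic ribonuclease, with 63 spleen tags and 2 elsewhere, and Cpb1, another carboxypeptidase, with 23 and 1. Klk1, a kallikrein of several glands, and Gp2, a zymogen granule protein, had 0. The label gives whole spleen, and the share that RNA of acinar cells had in other spleen results was not tested. The first list held 0.894% of spleen tags and the further list 0.489%.

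Markers of the other sampled tissues were below their own tissue. Spleen was highest for 0 of 10 liver genes, 0 of 3 lung genes, 0 of 5 kidney genes, 0 of 3 ovary genes and 0 of 3 brain genes. The liver list was nevertheless abundant in spleen, at 11411 CPM, the second highest library by tags, with kidney at 9478 CPM. The trimmed mean of M values divided spleen levels by 2.09 and kidney levels by 1.44 relative to lung. The order of spleen and kidney for this list therefore depended on the scaling. By distinct ends the list had 177 of 25523 in spleen and 760 of 108193 in kidney. Alb had 290 spleen tags, 0.0584 of its liver level but 6754 CPM against 4597 CPM in kidney and 1805 CPM in lung. After it came Apoe with 92 spleen tags (0.0799 of liver) and Trf, the iron carrier transferrin, with 78 (0.0754 of liver). Kap, the androgen-regulated kidney protein, had 31 spleen tags, 0.0134 of kidney, and Scgb1a1, the club cell secretoglobin, had 14 tags, 0.00450 of lung. The brain list had 0 spleen tags.

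The windows with the largest lower bounds began with Pnlip, at 586-fold over its single lung tag (lower bound 100). Next came an unnamed window at chr12:50690001-50692000 on the minus strand, with 83 spleen tags and 4 lung tags (238-fold, lower bound 89.7), of which 82 ended in a run of A. An unnamed window at chr1:38090001-38092000 on the minus strand had 50 spleen tags on 1 end and 3 lung tags. The tag of that end differs from a Gm8130 tag at chr16:23050980 (89 spleen tags) only in the last base. Ltb was next, and then an unnamed window at chr9:54670001-54672000 with 42 spleen tags. Pfn1, which encodes the actin-binding protein profilin 1, had 162 spleen tags on 6 ends in its leading window, 39 lung tags and at most 4 elsewhere, 47.7-fold (lower bound 33.5). All Pfn1 tags in spleen held AATAAA, and over the whole gene the ratio by distinct ends was 1.12, so profilin 1 was high at its signal alone. The list went on with an unnamed window at chr13:112622001-112624000 (23 tags, all ending in A), a window of the pseudogenes Rpl35a-ps4 and Gm39905 (48 tags), Cpa1 and the window of Ptprcap and Rps6kb2.

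By number of tags the spleen windows were Cd74, Hbb-bs, the snoRNA host gene 2410006H16Rik with Snord49a and Snord49b (488 tags), Ltb, an unnamed window at chr17:39978001-39980000 (356 tags), Tmsb4x, Gm8130 (278 tags), H2-K1, Rplp1 (268 tags) and Alb. The snoRNA host window had 393 of its tags at 1 end, chr11:62416576, with a ratio of 2.21 over ovary (1.80 to 2.73), and by distinct ends the window was at 0.542 of ovary. Gm8130, a pseudogene, had 278 tags on 19 ends and stood 18.9-fold over ovary by tags and 2.21-fold by distinct ends. The unnamed chr17 window was not led by spleen: its end at chr17:39979944 held 204 spleen tags and was at 0.609 of ovary. Gnai2, an inhibitory G protein subunit of chemokine receptor signalling, had 255 tags in all, a ratio of 12.6 over lung (10.5 to 15.1) and 1.03 outside the span. Coch, which encodes the matrix protein cochlin, had 50 tags on 27 ends in spleen and 1 tag, in brain, elsewhere. Gnai2 and Coch were singled out after their values had been seen.

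Of the 130 spleen ends with at least 20 tags, 104 were above the second highest library beyond counting error (80%). These ends were chosen by their spleen tags alone, which favours spleen. Of the 130, 43 held at least 50% of their window's spleen tags. Among these 43, the strongest after the snoRNA host end was Hmg20b, a subunit of a chromatin complex, whose 230 spleen tags all lay at chr10:80808871, where lung had 8969 tags and spleen was at 0.294 of lung (0.257 to 0.336). Next were the chr17 end and Rpp25l, an RNase P subunit-like gene, with 145 tags at chr4:41659094 and a ratio of 3.08 (lower bound 2.55). Cstf2t, the testis form of a cleavage stimulation factor, had 121 spleen tags at chr19:31161459, all of a tag ending in 7 A, and was at 0.0970 of brain. Strong single ends thus stood on either side of the other libraries.

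Genes of ribosomal proteins were mixed. Of 61 with at least 10 tags, spleen was highest for 31, and their median ratio was 1.17, against 0.212 over all 9986 named genes. Of the 18 with at least 20 spleen tags 13 were led, against the background of 69.1%. Rpl18 had 93 spleen tags on 7 ends, a ratio of 21.1 (7.00 to 104) over ovary, and 0 tags outside the span. Rplp1 had 269 spleen tags and a ratio of 3.45 over ovary by tags and 3.30 over lung outside the span. By distinct ends it was 0.930 over ovary (0.491 to 1.76), so that count gave no direction. Rpl3 had 48 spleen tags and a ratio of 1.72 over ovary (0.992 to 3.10). Rack1, a ribosome-bound scaffold protein, had 88 spleen tags and a ratio of 1.497 over ovary (1.02 to 2.23) by tags and 0.930 by distinct ends. The translation factor Eef2 had 36 spleen tags and a ratio of 0.942 (0.553 to 1.62), so spleen and ovary could not be told apart there.

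Tags ending in at least 6 A made up 5.95% of the spleen library (5.72 to 6.17%), against 3.77% in brain and 0.153 to 0.835% elsewhere. In spleen they were spread over 1409 ends in 1251 windows, while brain had 96 such ends. Of the 9 such ends with at least 20 spleen tags, 3 had letters before the A run that all repeat the end of a strong spleen tag elsewhere in the genome. For 5 no repeat was found, among them an end in the window of Rplp2-ps1 and Wdr89 (97 tags) and both ends in Cstf2t, and an end in Hacd1 shared 10 of its 14 bases. In the 3 pairs the gene's tag comes first and the tag ending in A, with its A run in capitals, comes second.
Tmsb4x, chrX:163645044: AATAAAgttttaaaacctga
chr12:50691123: tttaaaacctgAAAAAAAAA
Ltb, chr17:35333228: gaaAATAAAgaatgtaaact
chr1:95597183: aaagaatgtaaactAAAAAA
Cpa1, chr6:30595341: ataaagtctgattgtaaact
chr10:102620148: tgattgtaaactAAAAAAAA
The pairs share the 11, 14 and 12 bases before the A run. The 3 ends had 79, 53 and 25 spleen tags, and outside spleen only the first had any, 4 in lung. Of the 7 windows led by spleen with no tag in any other library, 4 consisted mostly of tags ending in A. With such tags left out, 177 of 229 windows were led (77.3%). Tags ending in fewer than 6 A stayed in, such as that at chr1:38091799.

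Few windows could be tested for being lowest in spleen. Of 17 windows with at least 20 tags in each of the 5 other libraries, 7 were below the lowest of them beyond counting error (41.2%). An unnamed window at chr1:24618001-24620000 had 19 spleen tags on 2 ends against 606 in liver and 12304 in kidney, 0.0576 of liver (0.0345 to 0.0908). Rnf11, a RING finger protein, had 1 spleen tag and at least 39 elsewhere, and Ctsd, the lysosomal protease cathepsin D, had 1 and at least 20. The host window of Mirlet7b and Mirlet7c-2 had 14 spleen tags against 93 in liver, and Atp5g3, a subunit of the mitochondrial ATP synthase, had 9 against 30 in brain. By distinct ends 3 windows could be compared and 0 were lower in spleen.

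Over 12337 windows with at least 10 tags in all, the spleen profile on the log2(CPM + 1) scale had Pearson's r of 0.379 with lung, 0.252 with liver, 0.211 with ovary, 0.139 with brain and 0.0827 with kidney. These values describe windows that are not independent, in libraries of unequal depth. Of all 25523 spleen ends, 35.5% had a tag in another library and 30.8% had one in lung.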

How the data were processed

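The 6 deposited tables list, per the labels and the authors' description, uniquely aligned tags with their location and, as a count joined to the sequence, their reads. Bowtie and mm9 are named in the submitters' processing notes, and its settings were not stated in any source used here. The deposited score is a display value (70 per read up to 999) and was not used. Sequences listed at 2 places within a library were left out (17.2% of spleen reads), the 5′ end was taken by strand, and tags were summed in 2 kb strand windows and scaled to 1000000. Windows were named with RefSeq symbols (GRCm38.p6) by matching promoter and hairpin sequences to tags over 20 nt, with equal spacing in both builds within 100 nt (10262 of 12337 windows), and 14 genes, Cd74 among them, were placed by hand from known mm9 positions with no file behind them. The 3-count limit stands for a count of 0. Named were the 10 windows with the largest lower bound, the 10 with most tags, the 5 strongest dominant ends, the 5 lowest windows and listed markers with at least 20 spleen tags, plus genes said to be singled out. Listed genes with fewer spleen tags were named after their values were seen. Members and lists were chosen with earlier results of these data known. Calls were also run on simulated counts drawn independently, without PCR copies, so that run bears on counting error only. Python 3.11.15, NumPy 2.4.6, SciPy 1.17.1 and pandas 2.3.3 were used.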

Additional observations from a re-analysis of the deposited data

Results flagged for a closer look

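Reads listed at 2 places stayed outside the levels above and made up 17.2% of the reads in spleen, against 8.62 to 11.2% in the other 5 libraries. Counted once each, 43.0% of these spleen reads held AATAAA (41.6 to 44.5%), against 3.58 to 11.2% elsewhere, and 10.5% ended in a run of at least 6 A (9.58 to 11.4%), against 0.0336 to 0.887% elsewhere.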

How the results depend on the processing

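No paired analysis was possible because the labels give every tissue the same replicate number, 1, and each tissue has 1 library. Of 243 windows tested, 184 were led by spleen. With the minimum of 20 applied to distinct spleen ends, 27 of 45 were led (88 of the same 243 were led by ends in windows chosen by tags). The count was 81 of 156 from tags within the signal span alone and 62 of 77 without them. It was 358 of 645 with at least 10 tags and 62 of 76 with at least 50, so both the count and the number tested moved. It ranged from 136 to 244 under the other settings. The led share of spleen tags, 29.5%, became 24.0% under the trimmed mean of M values, 32.3% with reads at 2 places kept, 30.3% without tags ending in A, 3.73% by distinct ends, 15.9% with at most 5 tags per end, 20.2% outside the span, 27.5% within it, 35.0% and 21.0% at minimums of 10 and 50 tags, and 30.1%, 30.5% and 30.3% without lung, liver and ovary. The 7 of 17 windows lowest in spleen became 11 of 25 with reads at 2 places kept, 0 of 3 by distinct ends, 3 of 8 with at most 5 tags per end, 13 of 57 and 3 of 6 at minimums of 10 and 50, and 11 of 29 without ovary.

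Among lists, the trimmed mean of M values gave 0.689 for macrophages, 1.04 for erythroid cells, 0.808 for neutrophils and 0.787 for ribosomal proteins and translation. Outside the span leukocytes were at 1.01, neutrophils at 1.36, proliferation at 0.321 and ribosomal proteins and translation at 1.54. With reads at 2 places kept, macrophages were at 0.932 and ribosomal proteins and translation at 1.22. Macrophages were at 1.13 by distinct ends and 1.29 within the span. Without their top member, T cells were at 1.37, macrophages at 1.001 and neutrophils at 1.37.

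A turn below means only that a ratio crossed 1, and its interval may still include 1. Single genes turned direction under the trimmed mean of M values for H2-Ab1 (0.879), B2m (0.853), H2-D1 (0.762), Tmsb4x (0.974, 0.862 to 1.10) and Hbb-bs (0.850). Outside the span H2-K1 (0.517), Tmsb4x (0.439), Ptpn6 (0.424), Pfn1 (0), Gm8130 (0.352), Eef2 (1.76) and the chr17 window (1.45) turned. There the interval included 1 for H2-K1 (0.225 to 1.05) and Ptpn6 (0.0473 to 1.80). It lay below 1 for Tmsb4x (0.297 to 0.626) and above 1 for Eef2 (1.03 to 3.03) and the chr17 window (1.25 to 1.69). The chr17 window had the same 356 spleen and 345 ovary tags with and without the span, so only the scaling turned it. Eef2 kept 32 of 36 spleen tags, and scaled to all unique tags these would not put spleen above brain. Pfn1 had 0 spleen tags outside the span. By distinct ends H2-K1 (0.826), Tmsb4x (0.558), Rack1 (0.930), the snoRNA host (0.542), the lowest chr1 window (10.6), Rnf11 (3.54, from 1 spleen end) and the let-7b host (1.21) turned. With at most 5 tags per end Tmsb4x (0.859), the snoRNA host (0.546), the chr1 window (6.18), Rnf11 (1.47) and the let-7b host (2.29) turned. Within the span alone Rack1 was at 0.889. With reads at 2 places kept, 6.72% of tags ended in A, 62.9 ends per 100 tags were distinct and the 10 strongest ends held 4.24%. Without tags ending in A these held 5.44%.

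The causes were not tested. The settings on the signal span, on distinct spleen ends and on top members were chosen after seeing the data, and 20 alternatives gave no value. Depth limits the comparison most in ovary and brain, where a count of 0 allows 103 and 89.9 CPM.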
